A study of Mus musculus with 6 samples.

Results

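The genes described here are 37 genes whose products fold proteins in the endoplasmic reticulum (ER) or remove those that do not fold, out of 48699 genes measured in mouse liver. They were chosen by name and function, with earlier results of these data known. They cover 3 sensors and transcription factors of the unfolded protein response, 9 genes of the lumenal Hsp70 system and 1 Hsp90 chaperone. The others are 5 genes of disulfide bond formation, 4 genes of the calnexin cycle and 15 genes of ER-associated degradation. All 37 were found in the deposited table and all 37 passed the filter on low values. 2 of the symbols in use today appear there under older names, Ero1b as Ero1lb and Selenos as Vimp.

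Poly(A) RNA was sequenced from the livers of adult male mice on a C57BL/6 background, aged 10 to 12 weeks and fasted overnight for 8 to 10 h, and the column headings of the table name a chow diet. The 3 control mice carried floxed alleles of both genes, Fxr fl/fl and Shp fl/fl. The 3 double knockout mice were Fxr-/- and Shp-/- in hepatocytes. FXR, encoded by Nr1h4, senses bile acids in the nucleus, and SHP, encoded by Nr0b2, is a repressor whose gene FXR activates. The Cre driver is not named in the labels. Nothing in the labels says whether littermates were used, so the p-values measure only the spread between these samples.

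Secreted and membrane proteins enter the ER unfolded. There the Hsp70 chaperone BiP binds exposed hydrophobic stretches in cycles driven by ATP, J proteins start each cycle, nucleotide exchange factors end it, and protein disulfide isomerases form and rearrange disulfide bonds. N-glycosylated chains pass through the calnexin cycle, in which a glucosyltransferase tags incompletely folded chains for another round of binding. Chains that keep failing are trimmed by mannosidases, read by lectins, moved through a membrane complex around the ubiquitin ligase HRD1 and pulled into the cytosol for the proteasome. When the load exceeds the capacity, the sensors IRE1, ATF6 and PERK start the unfolded protein response, which raises transcription of many of these genes through ATF6 and spliced XBP1. The hepatocyte secretes most plasma proteins and therefore depends heavily on this system.

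The deleted genes were checked first. Nr0b2 stood at 14.7, 17.6 and 18.7 FPKM (fragments per kilobase and per 1e6 mapped fragments) in the controls and at 0.216, 0.0734 and 0.293 FPKM in the double knockouts. Nr1h4 stood at 59.8, 71.8 and 68.0 FPKM in control mice and at 21.1, 15.5 and 22.0 FPKM in the double knockouts, so a remainder of its signal was measured in whole liver. Both were lower (limma, log2 fold change of -3.91, adjusted p = 0.000277, for Nr0b2 and of -1.73, adjusted p = 0.0172, for Nr1h4). The Nr1h4 call was lost with any 1 library other than control 3 left out (adjusted p between 0.0641 and 0.157) and with no filter (0.0654), at log2 fold changes between -1.82 and -1.58. The libraries held between 13.2 and 14.1 fragments, times 1e6, as read from the smallest steps of the values. Control 3 stood apart. Its correlation across genes with the other controls was 0.952 and 0.955, against 0.983 between those libraries, and a sum over 15 immediate-early genes, which respond within minutes to handling, was 873.9 FPKM there and between 65.5 and 208.7 FPKM in the other 5 libraries. Markers of hepatocytes summed to between 60053 and 72530 FPKM in the controls and between 33796 and 54383 FPKM in the double knockouts. Most of that sum was Alb, the 1 of the 8 markers whose groups did not overlap, and 0 of the 8 passed the test. The median log2 fold change over the 8 markers was -0.31.

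Of the 37 genes, 1 passed the test and was higher in the double knockouts, and 0 passed it and were lower. The test was limma on log2(FPKM + 1) across the 11810 genes whose mean reached 0.5 FPKM, with Benjamini-Hochberg adjustment at 0.05. Across all of those genes 0.169% were called higher and 0.144% lower. The gene called was Dnajc1, a membrane-bound J protein of the ER, and the call does not survive the loss of most single libraries, as described with its values. At an unadjusted p under 0.05, 1 of the 37 genes was higher and 7 were lower, against a background of 6.97% and 7.98% of all tested genes. The authors' deposited table marks 0 of the 37 as higher and 3 as lower, Sdf2l1, Creld2 and Derl3, and across the genes it tested 2.85% are marked higher and 1.73% lower.

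Most of the 37 genes had lower means on the log scale in the double knockouts without passing the test singly. The log2 fold change was negative for 28 of 37 genes, 75.7%, against 50.8% of all tested genes. Its median over the 37 was -0.27, against -0.01 over all genes tested and -0.31 over the 8 hepatocyte markers. Both groups were fully separated for 10 of the 37. The double knockouts lay below every control for 8 genes (Xbp1, Dnajb11, Dnajc3, Sdf2l1, Manf, P4hb, Pdia6 and Derl2), or 21.6%, against 11.6% of all tested genes, and above every control for 2 genes (Dnajc1 and Atf6), against 11.3%. The chaperone and folding roles had the lower median, -0.36 over 19 genes of which 16 were negative. The degradation roles had a median of -0.12 over 15 genes of which 11 were negative. The 37 genes share the same 6 libraries and were chosen with earlier results of these data known. These counts are descriptions of 6 livers.

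**Figure D1:**
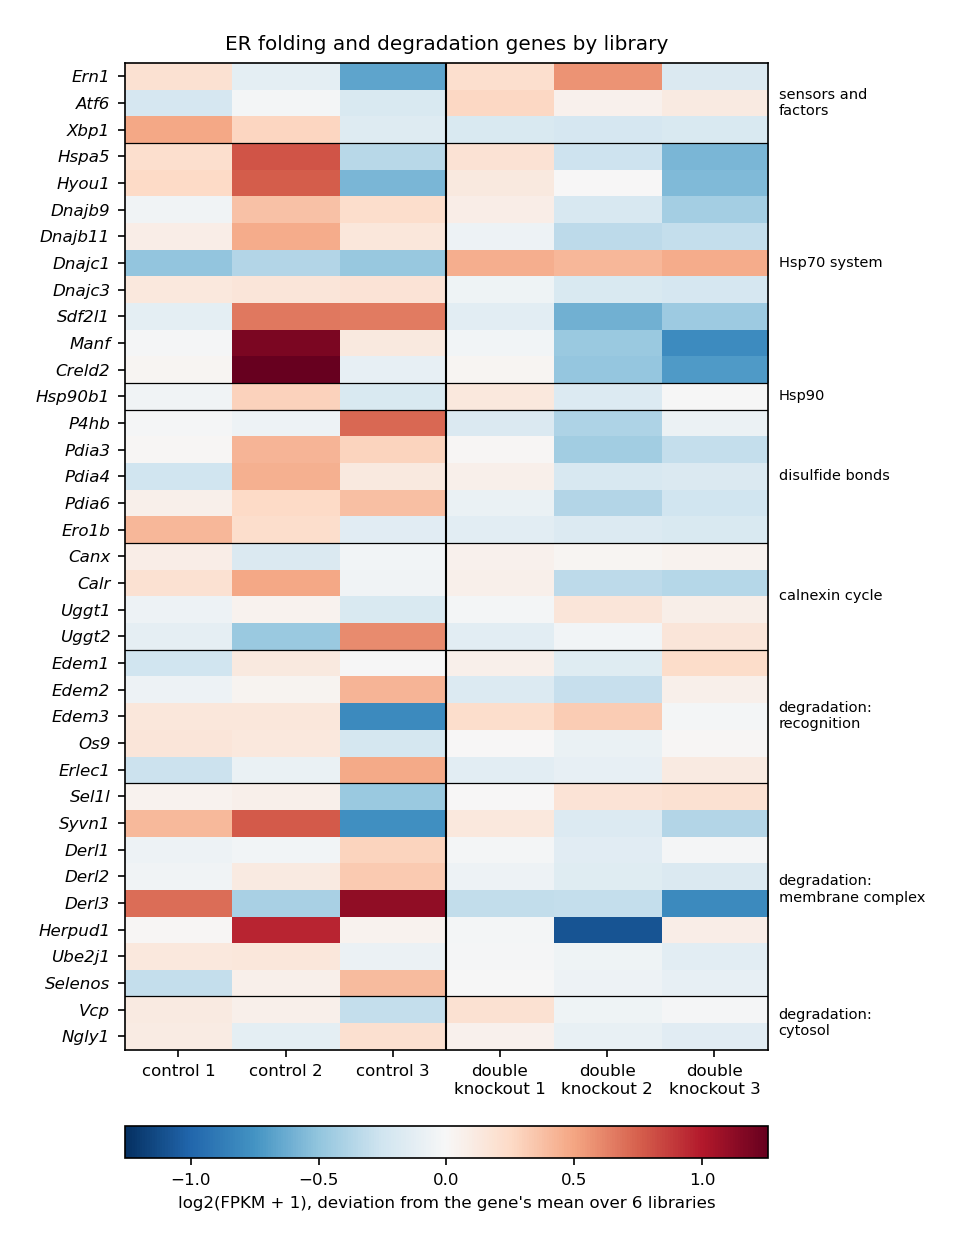
Heat map of the 37 genes (rows, grouped by role) in the 6 libraries (columns); colour gives the deviation of log2(FPKM + 1) from the gene's mean over the 6 libraries, red above and blue below. Control 2 is red across most of the Hsp70 rows, and Dnajc1 is the row of that block with red in the 3 double knockouts and blue in the 3 controls.

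The spread among the controls came largely from single libraries. Control 2 was the highest of the 6 libraries for 14 of the 37 genes, 37.8%, against 19.2% of all tested genes, and control 3 was the highest for 11 (background 26.6%) and the lowest for 9 (background 26.0%). Double knockout 3 was the lowest library for 11 genes, 29.7%, against 12.2% of all tested genes. The median deviation of the 37 genes from their own means, on the log2 scale, was 0.02, 0.14 and -0.01 in the controls and 0.00, -0.17 and -0.14 in the double knockouts. Without control 2 the median log2 fold change of the 37 genes was -0.16, without control 3 it was -0.18, and without double knockout 3 it was -0.16. The 37 genes summed to 2725, 3455 and 2935 FPKM in control mice and to 2634, 2114 and 2341 FPKM in the double knockouts. All genes of a library summed to 702759, 789099 and 841745 FPKM in control mice. In the double knockouts that total was also lower, at 688182, 610618 and 697877 FPKM. The share of the 37 genes in it was 0.388%, 0.438% and 0.349% in control mice. In the double knockouts the share was 0.383%, 0.346% and 0.335%, and the groups overlapped. The 10 most abundant of the 37 genes made up between 69.9% and 75.9% of their summed level.

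Many genes of this group carry the ER stress response element, to which ATF6 binds together with the factor NF-Y. Its letters are CCAAT and CCACG with 9 free bases between them (ERSE), and a shorter variant has ATTGG and CCACG with 1 free base between them (ERSE-II). Both strands were searched in a window from 250 bases before to 50 bases after each start in the RefSeq promoters on GRCm38.p6, where 32 of the 37 genes have an entry. ERSE was found for 10 of those 32 genes, 31.2%, against 0.137% of all 27025 genes with an entry (0.119% of 32851 promoters of the same length), and ERSE-II for 2 of the 32, 6.25%, against 0.0444% of those genes. The core of a further element, TGACGTGG, was found for Ube2j1 and Vcp, 6.25% of the 32 genes against 0.714% of all genes with an entry. The half-site CCACG, which both ERSE and ERSE-II contain, was found for 28 of the 32, 87.5%, against 35.5% of all genes with an entry. The matches are printed because they split the 32 genes with an entry into a set with a match in the window and a set without one. Atf6, Hyou1, Manf, Derl1 and Erlec1 have no entry and were not searched. Each is written 5′ to 3′ in the direction of the motif, with the fixed letters in capitals and the free spacer in lower case.
Hspa5, chr2:34772025-34772043, 65 bases before the start: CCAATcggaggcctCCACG
Hsp90b1, chr10:86705638-86705656, 212 bases before the start: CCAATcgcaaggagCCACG
Hsp90b1, chr10:86705533-86705551, 107 bases before the start: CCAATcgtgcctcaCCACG
Calr, chr8:84847075-84847093, 162 bases before the start: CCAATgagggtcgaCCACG
Canx, chr11:50325800-50325818, 145 bases before the start: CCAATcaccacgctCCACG
Creld2, chr15:88819520-88819538, 126 bases before the start: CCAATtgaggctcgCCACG
Dnajc3, chr14:118937827-118937845, 105 bases before the start: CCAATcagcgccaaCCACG
Pdia6, chr12:17266491-17266509, 98 bases before the start: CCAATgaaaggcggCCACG
Ero1b, chr13:12565682-12565700, 201 bases before the start: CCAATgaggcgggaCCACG
Derl3, chr10:75893242-75893260, 156 bases before the start: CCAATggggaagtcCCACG
Syvn1, chr19:6046532-6046550, 44 bases before the start: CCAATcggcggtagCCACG
Herpud1, chr8:94386377-94386387, 52 bases before the start: ATTGGgCCACG
Dnajb11, chr16:22857852-22857862, 7 bases after the start: ATTGGcCCACG

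The 250 bases before the start are printed for 4 genes, in the direction of the gene, with the fixed letters of ERSE or ERSE-II in capitals. Hspa5 encodes BiP itself, Creld2 and Herpud1 are inducible targets of the response with one of each element, and Dnajc1 is the gene that passed the test.
Hspa5, chr2:34771840-34772089, + strand: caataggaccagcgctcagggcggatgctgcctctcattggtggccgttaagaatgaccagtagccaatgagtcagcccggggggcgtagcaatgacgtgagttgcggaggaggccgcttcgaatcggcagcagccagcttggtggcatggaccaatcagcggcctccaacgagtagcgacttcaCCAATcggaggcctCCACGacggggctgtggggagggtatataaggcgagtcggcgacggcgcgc
Creld2, chr15:88819396-88819645, + strand: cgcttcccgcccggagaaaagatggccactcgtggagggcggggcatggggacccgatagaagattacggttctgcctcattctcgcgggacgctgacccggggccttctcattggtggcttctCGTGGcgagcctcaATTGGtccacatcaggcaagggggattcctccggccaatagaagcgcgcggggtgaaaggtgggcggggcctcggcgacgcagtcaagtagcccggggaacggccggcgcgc
Herpud1, chr8:94386179-94386428, + strand: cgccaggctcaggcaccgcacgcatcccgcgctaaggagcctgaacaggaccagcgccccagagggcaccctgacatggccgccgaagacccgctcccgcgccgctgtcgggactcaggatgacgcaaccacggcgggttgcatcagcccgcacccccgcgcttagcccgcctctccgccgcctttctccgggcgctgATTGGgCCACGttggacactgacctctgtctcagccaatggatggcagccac
Dnajc1, chr2:18392831-18393080, - strand: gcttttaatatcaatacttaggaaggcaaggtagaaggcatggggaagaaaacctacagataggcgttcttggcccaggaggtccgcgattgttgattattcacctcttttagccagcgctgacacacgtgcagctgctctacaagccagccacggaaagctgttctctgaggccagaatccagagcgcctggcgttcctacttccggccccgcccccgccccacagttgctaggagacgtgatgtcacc
In Creld2 the element runs against the gene, so its letters appear as the reverse complement. The Dnajc1 window holds CCACG but no full match to ERSE or ERSE-II, which says nothing of whether a factor binds there.

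**Figure D2:**
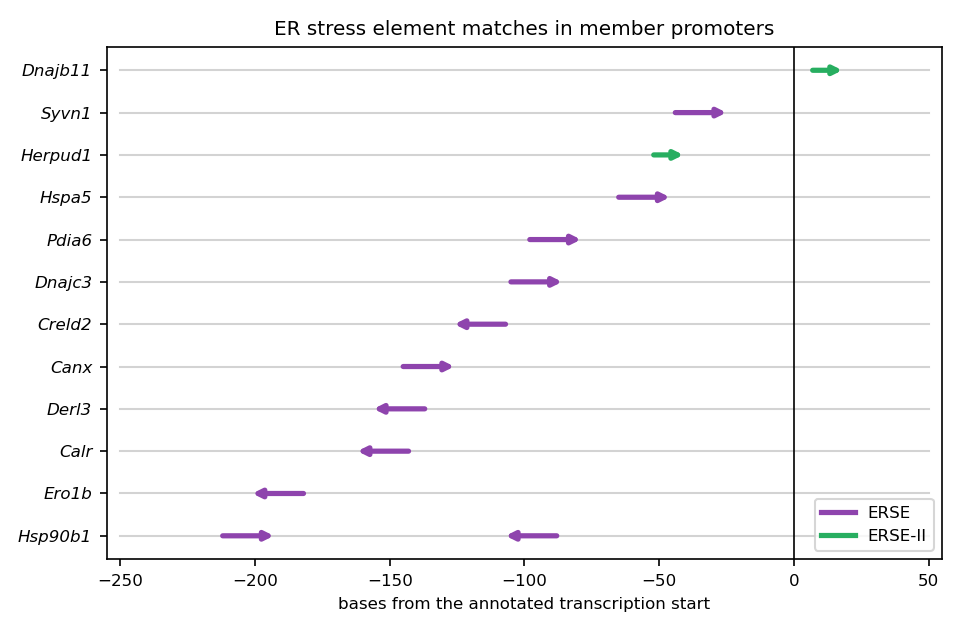
Positions of ERSE (purple) and ERSE-II (green) in the 12 genes that hold one, in bases from the annotated start; each arrow spans the motif and points in its direction. The matches lie between 212 bases before and 7 bases after the start, and Hsp90b1 holds 2 in opposite directions.

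The 12 genes with ERSE or ERSE-II had a median log2 fold change of -0.43, and 11 of the 12 were negative. The 20 genes with a promoter entry and neither motif had a median of -0.12, with 13 of 20 negative. Only exact matches within the window were counted, so these 20 genes may hold altered or more distant elements. None of the 12 passed the test. By library, the median deviation of the 12 genes was 0.11, 0.37 and -0.04 in the controls and 0.00, -0.28 and -0.27 in the double knockouts, while the 20 genes stayed between -0.09 and 0.09 in all 6. Control 2 was the highest library for 7 of the 12 genes and for 5 of the 20. For the genes with the element, double knockout 1 lay slightly above control 3, so the groups overlapped. A further 12 tested genes outside the 37 hold ERSE or ERSE-II in the same window. Their median log2 fold change was 0.00, 6 of the 12 were negative, 0 passed the test, and 2 were highest in control 2. The difference between these sets was not tested.

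**Figure D3:**
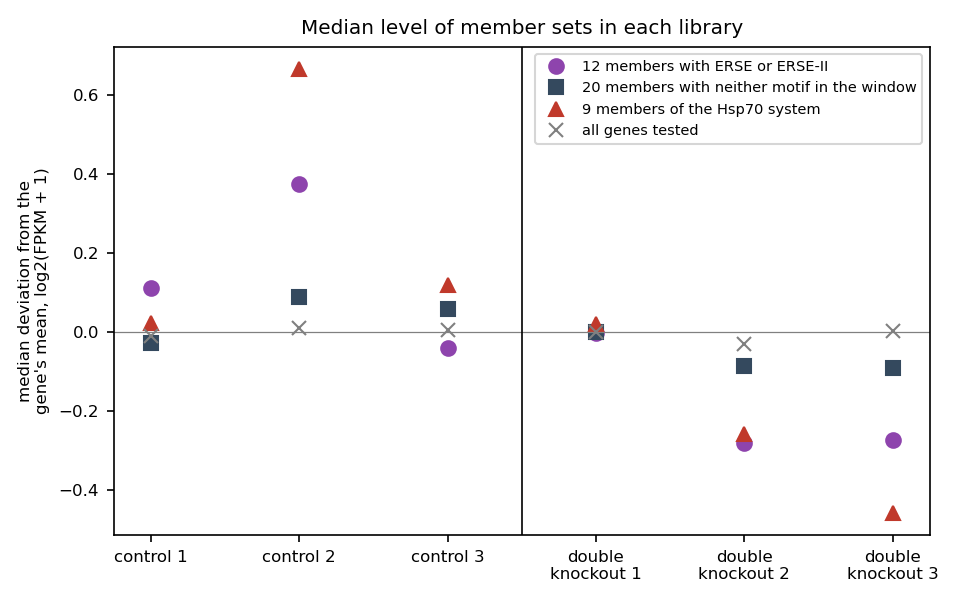
Median deviation from each gene's own mean, on the log2(FPKM + 1) scale, for sets of genes (symbols) in each of the 6 libraries. The genes with ERSE or ERSE-II and the Hsp70 system are highest in control 2, at 0.37 and 0.67, and low in double knockouts 2 and 3, whereas the median of all genes tested stays between -0.03 and 0.01.

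In the Hsp70 system, the gene that passed the test had the opposite sign to the other 8. Dnajc1, which holds its J domain in the lumen to recruit BiP and is anchored in the ER membrane, lies at chr2:18195654-18392830 on the - strand of GRCm38 (ENSMUSG00000026740.12). It stood at 9.69, 10.7 and 9.81 FPKM in control mice and at 19.8, 19.1 and 19.9 FPKM in the double knockouts. The controls are tightly grouped, the double knockouts likewise, and the groups are far apart. The means were 10.1 ± 0.532 and 19.6 ± 0.388 FPKM (SD, n = 3 each), a ratio of 1.95. Dnajc1 rose by 0.90 on the log2(FPKM + 1) scale (SE 0.13, 95% interval 0.60 to 1.19, limma adjusted p = 0.0490).

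That call sits at the threshold. It was lost with double knockout 1, 2 or 3 or control 1 or 2 left out (adjusted p between 0.182 and 0.244) and held without control 3 (adjusted p = 0.0319, in a fit that called 1.13% of all genes higher and 0.652% lower), and over all 15 alternatives the adjusted p ranged from 0.00983 to 0.244 while the log2 fold change stayed between 0.73 and 0.96. The authors' deposited table gives Dnajc1 a p of 0.0486 and a q of 0.247 and does not mark it. Its 3′ end overlaps Mllt10 on the opposite strand, and the labels do not say whether strand was used in counting. Mllt10 itself stood at 6.06, 7.15 and 6.53 FPKM in control mice and at 7.21, 6.90 and 7.08 FPKM in the double knockouts (log2 fold change of 0.09, adjusted p = 0.779). As a share of the summed FPKM of the ER J proteins Dnajb9, Dnajb11, Dnajc1 and Dnajc3, Dnajc1 made up 7.02%, 6.42% and 6.54% in the controls and 13.9%, 15.6% and 16.7% in the double knockouts. This share does not depend on the scaling of a library, and the groups did not overlap. It is made from the same Dnajc1 values, which were already separate, so it adds no support for the call.

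**Figure D4:**
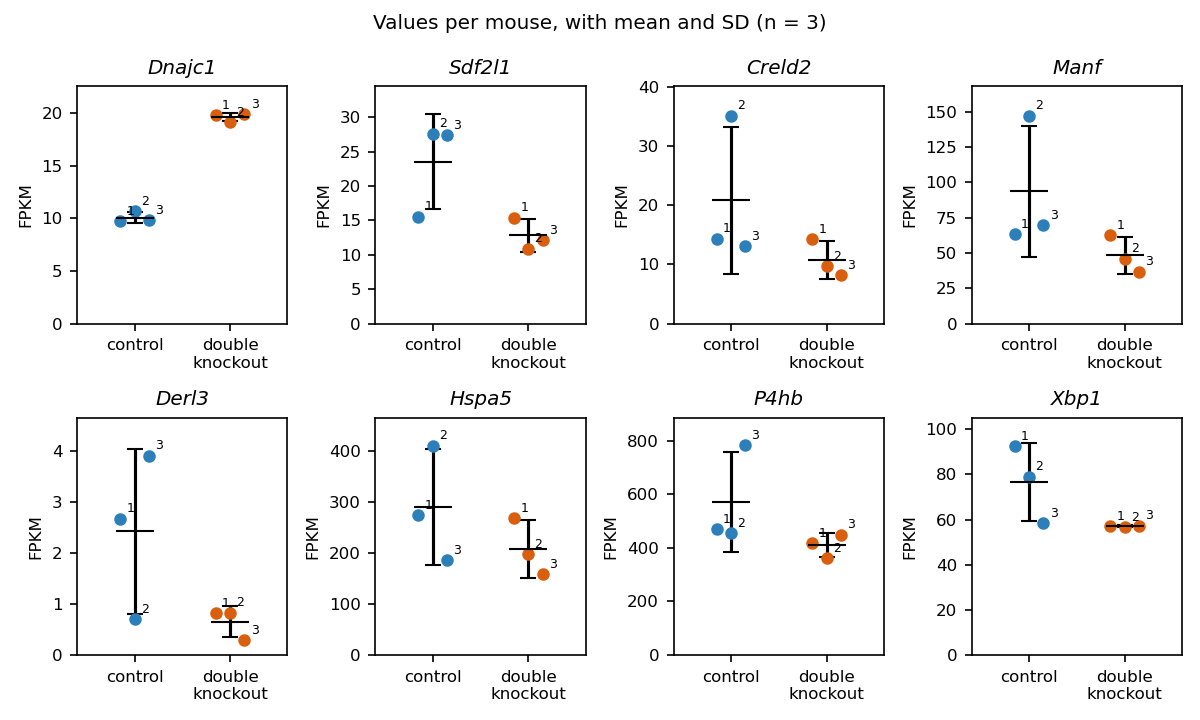
FPKM of 8 genes in each mouse (points, numbered by replicate, blue for control and orange for double knockout), with the mean and SD of each group of 3 (black). The Dnajc1 groups are well separated and narrow, while for Creld2 and Manf the control mean is pulled up by control 2, at 35.1 and 147 FPKM.

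Hspa5, which encodes BiP, is at chr2:34771970-34777547 on the + strand. It stood at 273, 409 and 185 FPKM in control mice and at 268, 197 and 158 FPKM in the double knockouts. The groups overlap widely, since control 3 lay below 2 of the 3 double knockouts. Its log2 fold change was -0.44 (SE 0.32, 95% interval -1.19 to 0.31, adjusted p = 0.550). It was -0.15 without control 2, -0.72 without control 3 and -0.25 without double knockout 3. Per FPKM of Dnajc1, there were 28.2, 38.4 and 18.9 FPKM of Hspa5 in the controls and 13.6, 10.3 and 7.94 in the double knockouts. This ratio holds the same separate Dnajc1 values and likewise adds no support for the Dnajc1 call. Hyou1, the large Hsp70 relative that exchanges nucleotide on BiP, averaged 21.5 ± 9.69 FPKM in control mice and at 16.5 ± 4.05 FPKM in the double knockouts (adjusted p = 0.720).

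The other J proteins among the 37 genes had negative fold changes. Dnajb9 (ERdj4), which represses IRE1 through BiP, averaged 47.9 ± 7.06 FPKM in controls and 37.1 ± 6.77 FPKM in double knockouts, with a log2 fold change of -0.36 (adjusted p = 0.403). Dnajb11 (ERdj3), a secreted and lumenal co-chaperone, averaged 45.6 ± 6.83 and 32.8 ± 3.46 FPKM, and its groups did not overlap (log2 fold change of -0.46, adjusted p = 0.268 in limma). Dnajc3 (P58IPK), which binds unfolded chains for BiP, had the narrowest controls of the 37 genes, with a highest value 1.03 times the lowest. It averaged 47.7 ± 0.66 and 38.5 ± 2.4 FPKM without overlap (log2 fold change of -0.31, adjusted p = 0.327 in limma). Dnajc1 is thus the J protein of this set with a positive fold change. Outside the 37 genes, the J proteins Dnajc10, Dnajb12 and Dnajb14 had log2 fold changes of 0.09, 0.09 and 0.06, and Dnajc25 one of -0.21.

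The next 3 genes encode small lumenal partners of the folding machinery, and they had large negative fold changes. Sdf2l1, a subunit of complexes with ERdj3 and BiP, lies at chr16:17130138-17132383 and stood at 15.5, 27.6 and 27.3 FPKM in control mice and at 15.4, 10.9 and 12.1 FPKM in the double knockouts. Control 1 and double knockout 1 were nearly equal, and the groups are otherwise clearly apart. The log2 fold change was -0.80 (SE 0.25, adjusted p = 0.230 in limma), and the authors' deposited table gives a q of 0.0137. Manf, a secreted factor that is held in the ER by BiP, lies at chr9:106838312-106891979 and stood at 63.5, 147 and 69.8 FPKM in control mice and at 62.7, 46.0 and 36.7 FPKM in the double knockouts. All 3 double knockouts were below the controls, again by little for double knockout 1. The log2 fold change was -0.86 (SE 0.34, adjusted p = 0.313 in limma), or -0.48 without control 2. In the annotation Manf overlaps Dcaf1 and Rbm15b, and reads could have been split among them.

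Creld2, a lumenal disulfide isomerase induced by ER stress, lies at chr15:88819646-88826683. It stood at 14.3, 35.1 and 13 FPKM in control mice and at 14.3, 9.74 and 8.22 FPKM in the double knockouts. Control 2 holds most of the difference, and the other 2 controls fall at the level of double knockout 1. Its log2 fold change was -0.79 (SE 0.38, adjusted p = 0.376 in limma) and -0.35 without control 2, whereas the authors' deposited table gives a q of 0.00569. Over the 9 genes of the Hsp70 system, 8 were negative, the median was -0.44, and control 2 was the highest library for 7. Hsp90b1, the Hsp90 chaperone GRP94 at chr10:86690209-86705509, carries 2 ERSE matches and stood at 205, 258 and 185 FPKM in control mice and at 231, 188 and 211 FPKM in the double knockouts. Its groups interleave, and its log2 fold change was -0.03 (95% interval -0.46 to 0.39, adjusted p = 0.949); the sign turns under quantile normalization, with the length and GC trend removed and with some single libraries left out.

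All 5 genes of disulfide bond formation had negative fold changes, with a median of -0.44, and 0 of 5 passed the test. P4hb (PDI), the most abundant of the 37 genes, is at chr11:120560298-120573253 and stood at 471, 454 and 784 FPKM in control mice and at 417, 361 and 449 FPKM in the double knockouts. Every double knockout was below every control, and control 3 alone raised the control mean. The log2 fold change was -0.44 (SE 0.25, adjusted p = 0.442), or -0.18 without control 3. Pdia3 (ERp57), the isomerase that works with calnexin and calreticulin, stood at 137, 183 and 166 FPKM in control mice and at 137, 100 and 111 FPKM in the double knockouts. Control 1 and double knockout 1 were alike, and the other libraries separated (log2 fold change of -0.48, adjusted p = 0.300 in limma). Pdia6, which pairs with BiP and has an ERSE match, stood at 89.9, 103 and 112 FPKM in control mice and at 81.1, 66.3 and 72.2 FPKM in the double knockouts. These groups did not overlap (log2 fold change of -0.46, adjusted p = 0.248 in limma). Pdia4 (ERp72) averaged 60.2 ± 14.6 and 51.0 ± 5.48 FPKM, with overlap. Ero1b, an oxidase that recharges PDI, averaged 10.0 ± 2.10 FPKM in control mice and at 7.67 ± 0.191 FPKM in the double knockouts (log2 fold change of -0.33, adjusted p = 0.415).

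The 4 genes of the calnexin cycle differed in sign, and 0 of 4 passed the test. Canx, the membrane lectin chaperone, has an ERSE match and stood at 87.3, 72.4 and 80.3 FPKM in control mice and at 85.5, 83.4 and 85.1 FPKM in the double knockouts. The double knockouts fall inside the range of the controls, and the log2 fold change of 0.08 had a 95% interval from -0.24 to 0.41 (adjusted p = 0.804). Calr, its soluble lumenal counterpart at chr8:84841850-84846934, stood at 336, 412 and 284 FPKM in control mice and at 308, 233 and 229 FPKM in the double knockouts. Double knockouts 2 and 3 were below every control and double knockout 1 was not (log2 fold change of -0.42, adjusted p = 0.385). Uggt1, the glucosyltransferase that returns chains to the cycle, averaged 8.83 ± 0.816 and 9.80 ± 0.637 FPKM. Its relative Uggt2 averaged 1.51 ± 0.974 and 1.39 ± 0.245 FPKM, a low level at which the controls ranged 3.57 times from lowest to highest.

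Among the sensors and factors, 2 of 3 fold changes were positive and 0 passed the test. Xbp1 encodes the factor that IRE1 activates by splicing its mRNA, and a value per gene does not separate the spliced from the unspliced form. At chr11:5520659-5525893, it averaged 76.6 ± 17.2 FPKM in control mice and at 57.0 ± 0.423 FPKM in the double knockouts. The 3 double knockouts lay just below the lowest control, control 3 (log2 fold change of -0.39, adjusted p = 0.374). Atf6, the sensor that is cut in the Golgi to free its transcription factor, averaged 9.84 ± 0.784 and 12.2 ± 0.995 FPKM. Every double knockout exceeded every control, with a log2 fold change of 0.29 (adjusted p = 0.381 in limma). Ern1, which encodes IRE1, averaged 6.71 ± 2.19 and 9.08 ± 2.58 FPKM with overlap (log2 fold change of 0.40, adjusted p = 0.521).

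**Figure D5:**
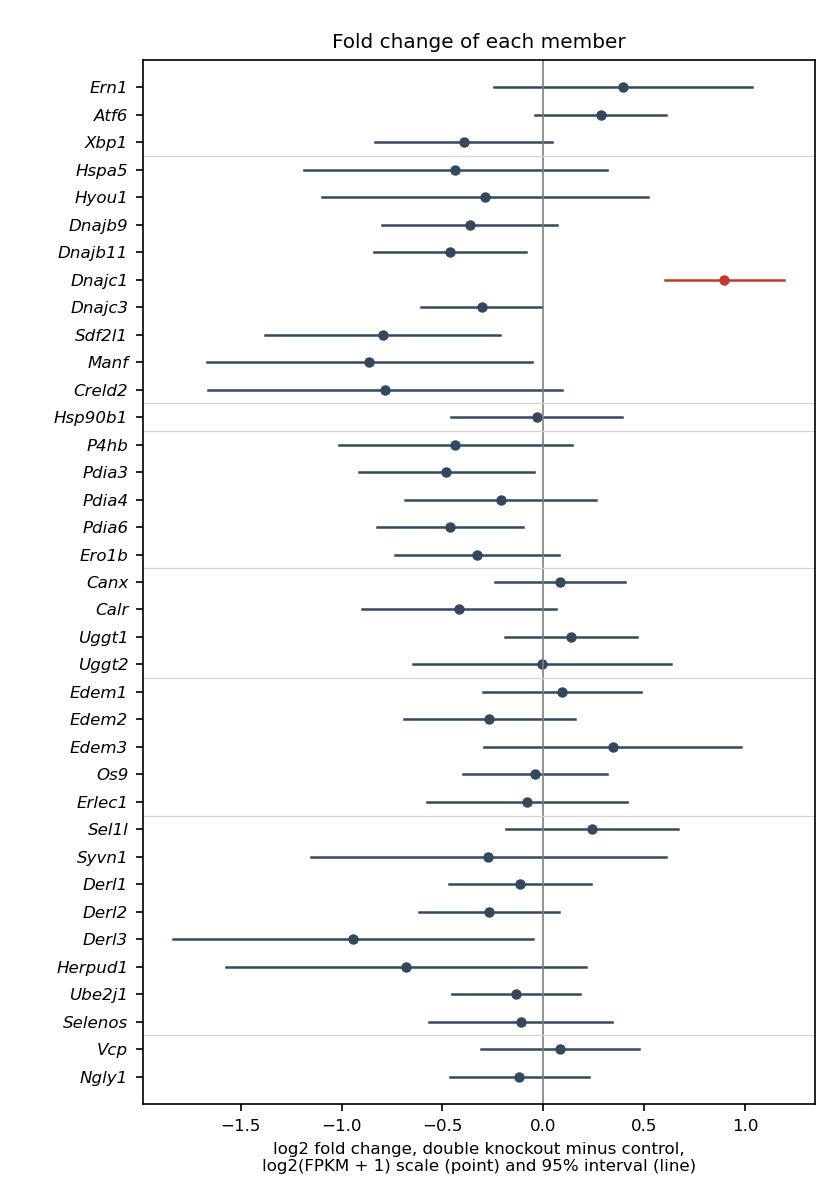
Log2 fold change (double knockout minus control, log2(FPKM + 1) scale) of each of the 37 genes with its 95% interval from limma; red marks an adjusted p under 0.05. Dnajc1, at 0.90, is the one marked, and the widest intervals belong to Herpud1, Derl3, Syvn1 and Creld2.

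Degradation begins with recognition of misfolded glycoproteins, and 0 of the 5 genes passed the test. The mannosidases that mark chains for disposal differed in sign, with log2 fold changes of 0.09 for Edem1, -0.27 for Edem2 and 0.34 for Edem3. The lectins that read the trimmed glycan, Os9 and Erlec1, had log2 fold changes of -0.04 and -0.08. Edem3 averaged 7.11 ± 2.67 and 8.90 ± 1.21 FPKM, and its low control mean came from control 3, at 4.03 FPKM. The groups overlapped for all 5, and none had an unadjusted p under 0.05 in limma.

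The membrane complex held 8 genes, 7 of them with negative fold changes and a median of -0.20. Herpud1, a short-lived scaffold of the HRD1 complex with an ERSE-II match, is at chr8:94386438-94395377. It stood at 254, 491 and 259 FPKM in control mice and at 247, 118 and 267 FPKM in the double knockouts. One library in each group set the difference, control 2 at the top and double knockout 2 at the bottom, while the other 4 lay between 247 and 267 FPKM. The log2 fold change was -0.68 (SE 0.38, adjusted p = 0.437), or -0.31 without double knockout 2 and -0.37 without control 2. Syvn1, which encodes the ligase HRD1 itself, averaged 23.7 ± 11.6 and 17.8 ± 3.37 FPKM, its controls spanning 3.08 times. Sel1l, the adaptor that holds HRD1 stable, averaged 17.9 ± 3.72 and 21 ± 1.53 FPKM and was the 1 positive gene of the 8, with a log2 fold change of 0.24 (adjusted p = 0.560). In the annotation Pdia3, Erlec1, Syvn1, Derl2 and Ngly1 overlap a protein-coding gene on the other strand, so their values may include its fragments. Pdia6 and Vcp also overlap such a gene, in each case one with a mean of 0 FPKM.

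Derlins form the channel beside HRD1, and the 3 of them differed in level and spread. Derl1 averaged 49.9 ± 7.07 and 45.8 ± 2.26 FPKM with overlap. Derl2 averaged 54.1 ± 7.29 and 44.5 ± 1.97 FPKM without overlap (log2 fold change of -0.27, adjusted p = 0.434). Derl3 is the scarce and inducible member, at chr10:75893413-75895941, and stood at 2.68, 0.702 and 3.91 FPKM in control mice and at 0.821, 0.833 and 0.297 FPKM in the double knockouts. Control 2, the library in which many of the 37 genes peaked, had the lowest control value here, inside the range of the double knockouts. The log2 fold change was -0.94 (SE 0.38, adjusted p = 0.315 in limma), and the authors' deposited table gives a q of 0.00490. With a pseudocount of 0.1 FPKM it became -1.57, and with libraries weighted by their quality -0.50. Without control 3 it was -0.62. The lowest value of Derl3 rests on about 5.49 fragments, computed with its longest transcript.

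The other components of the complex and the cytosolic end of the route showed small differences. Ube2j1, the ubiquitin-conjugating enzyme in the ER membrane, averaged 13.7 ± 1.23 and 12.3 ± 0.557 FPKM, and Selenos, which recruits p97, averaged 59.6 ± 14.6 and 54.0 ± 1.89 FPKM. Vcp encodes p97, the ATPase that pulls substrates from the membrane. It stood at 95.5, 92.7 and 71.5 FPKM in control mice and at 101, 85.2 and 87.2 FPKM in the double knockouts, with the double knockouts spread over the upper part of the control range and beyond. Its log2 fold change was 0.08 (95% interval -0.31 to 0.48, adjusted p = 0.848). Ngly1, which removes glycans from retrotranslocated chains, averaged 17.4 ± 2.09 and 15.9 ± 1.22 FPKM (log2 fold change of -0.12, adjusted p = 0.731).

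In bulk liver, fewer cells of a type and less RNA per cell cannot be told apart, and Derl3, Creld2, Sdf2l1 and Xbp1 are also known from antibody-secreting cells. Of 8 markers of B and plasma cells, 6 had a mean under 0.5 FPKM and Tnfrsf17 was at 0 in all 6 libraries. Summed, the 8 markers came to 18.7, 18.8 and 8.12 FPKM in control mice and at 5.36, 7.47 and 3.79 FPKM in the double knockouts, which did not overlap and came mostly from Igkc. Igkc, the kappa light chain constant region, had a log2 fold change of -1.37 (adjusted p = 0.182). Their part in the result was not tested. The 8 markers of Kupffer cells and macrophages summed to between 51.6 and 142 FPKM in the controls and between 93.8 and 239 FPKM in the double knockouts, with overlap. The 5 cholangiocyte markers summed to between 33.7 and 44.2 FPKM and between 59.1 and 63.7 FPKM, mostly from Spp1 (adjusted p = 0.146). For pancreatic acinar cells, which hold large amounts of ER, 7 of 8 markers were at 0 in all libraries. The other, Cela2a, was at 0.164, 0.318 and 1.35 FPKM in control mice. In the double knockouts it was at 1.70, 2.29 and 0.630 FPKM, with overlap. Markers of sinusoidal endothelial cells, stellate cells and fibroblasts, T and NK cells and neutrophils overlapped between the groups in their summed level.

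A wider list of 84 genes of the same pathway gave 0 of 83 tested genes called in either direction by limma, with 3 higher and 9 lower at an unadjusted p under 0.05 (6.97% and 7.98% of all tested genes). Its median log2 fold change was -0.09, with 48 of 83 negative against 50.8% of all tested genes. Other folding factors of the lumen had a median of -0.19 over 31 genes, other signalling genes -0.03 over 19 and other degradation genes -0.07 over 33. Among the folding factors the smallest p-values were those of Erp44, which retrieves clients from the early Golgi, with a log2 fold change of -0.49, and Erp29, at -0.52, and in the other direction of the oxidase Ero1a, at 0.29, and the calcium-binding Nucb1, at 0.24 (adjusted p = 0.240, 0.259, 0.425 and 0.466).

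Among the signalling genes, Ddit3 had the smallest p. It encodes CHOP, the factor induced downstream of PERK, and stood at 6.02, 10.1 and 6.34 FPKM in control mice and at 4.04, 2.63 and 3.44 FPKM in the double knockouts, without overlap (log2 fold change of -0.94, SE 0.23, adjusted p = 0.160 in limma). Control 2 was the highest library here too. Creb3, a transcription factor anchored in the ER membrane, had a log2 fold change of -0.38, its relative Creb3l2 one of 0.37 and the pore-forming Bak1 one of 0.36 (adjusted p = 0.280, 0.380 and 0.326). In the degradation list, Marchf6, a ubiquitin ligase of the ER membrane that also acts on enzymes of sterol synthesis, stood at 28.7, 27.9 and 27.3 FPKM in control mice and at 40.6, 38.7 and 40.9 FPKM in the double knockouts. Like Dnajc1, its groups were narrow and separate, with a log2 fold change of 0.50 (SE 0.12, adjusted p = 0.169 in limma). Erlin2, which marks the IP3 receptor for degradation, had a log2 fold change of 0.40 (adjusted p = 0.263). The ligase Rnf5 and the membrane chaperone Bcap31 had negative values, with log2 fold changes of -0.54 and -0.51 (adjusted p = 0.200 and 0.234), and neither pair of groups overlapped.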

How the data were processed

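The values are FPKM per gene and library as the authors deposited them, from liver mRNA of 6 mice. Per the submitters' processing notes, which give no role or order, the tools were Cuffdiff 2.2.1, STAR 2.4.2a, Trimmomatic, Picard 1.119 and bcl2fastq 2.17.1.14, and the build was GRCm38 (mm10). No label gives the annotation, strand setting or treatment of multiply mapped reads, so overlapping genes may share fragments. The authors also deposited a comparison with a test score, a p-value and a q-value per gene, per the file headers; its fold-change column was not used because some entries are not numbers. FPKM divides by a library total, so a few abundant transcripts can shift all others. Here the median-of-ratios factors of the 6 libraries lay between 0.981 and 1.015. FPKM is not a count, so no count model was fitted.

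The 11810 genes whose mean reached 0.5 FPKM were fitted on log2(FPKM + 1) in R 4.3.3 by limma 3.58.1, double knockout minus control, with a mean-variance trend and Benjamini-Hochberg adjustment at 0.05; this scale understates changes of low genes. The fit was tested on simulated data with larger effects than any of the 37 genes had and with less noise than these libraries. That test does not show how well changes of the size seen here are found. The design of 3 against 3 cannot reach an exact permutation p below 0.1. Alternatives were a pseudocount of 0.1 FPKM, no filter or one of 2 FPKM, median-of-ratios and quantile scaling, a replicate block, array weights, leaving out each library, and, chosen after seeing the data, removal of trends in length and GC. The 37 genes and all lists were chosen with earlier results of these data known. All 37 are named; values in every library are given for genes past the threshold in the limma fit, in a fit without 1 library or in the authors' table, and for the 10 most abundant; of the wider list, the 2 genes with the smallest p in each direction of each of its 3 groups are named. Mllt10, Alb, Spp1, Tnfrsf17, Igkc and Cela2a were named after their values were seen. Dnajc10, Dnajb12, Dnajb14 and Dnajc25 of the wider list were named outside its rule, as further J proteins. Gene positions are from GENCODE M21 on GRCm38, promoters from RefSeq on GRCm38.p6.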

Additional observations from a re-analysis of the deposited data

How the results depend on the processing

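The count of genes called higher, 1 of 37, fell to 0 with a pseudocount of 0.1 FPKM, with no filter, with the length and GC trend removed, and ranged from 0 to 1 with single libraries left out; the count called lower was 0 throughout. The median log2 fold change of the 37 genes, -0.27, became -0.12 under quantile normalization and ranged from -0.30 to -0.16 with single libraries left out, and that of the 12 genes with ERSE or ERSE-II, -0.43, became -0.24 under quantile normalization and ranged from -0.54 to -0.31 with single libraries left out. The number of the 37 genes with a negative fold change was between 24 and 28 in every alternative run. In the wider list 1 gene was called higher (Marchf6) and 1 lower (Ddit3) with array weights, and none in either direction with a library left out.

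For single genes and settings, 536 results kept direction and call, 17 lost the call and 30 changed sign. The sign changed for Uggt2 with a pseudocount of 0.1 FPKM (0.048), for Hsp90b1 (0.17), Os9 (0.11), Derl1 (0.020) and Selenos (0.043) under quantile normalization, and for Uggt2 (0.25) and Erlec1 (0.047) with array weights. With the length and GC trend removed, alone or with the replicate block, it changed for Hsp90b1 (0.0057), Uggt1 (-0.12), Edem1 (-0.087), Erlec1 (0.048) and Selenos (0.076). With single libraries left out the log2 fold change ranged from -0.65 to 0.018 for Hyou1, -0.14 to 0.10 for Hsp90b1, -0.24 to 0.29 for Uggt2, -0.012 to 0.19 for Edem1, -0.16 to 0.023 for Os9, -0.24 to 0.13 for Erlec1, -0.73 to 0.043 for Syvn1, -0.29 to 0.060 for Selenos and -0.048 to 0.16 for Vcp. The cause was not tested. Nr1h4 lost its call in 5 of the fits without 1 library, with no filter (adjusted p = 0.0654) and with the replicate block and the length and GC trend removed (0.0716).

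With the replicate block, 0 of the 37 genes were called higher (Dnajc1, adjusted p = 0.0804), also 0 with the block and the length and GC trend removed (adjusted p = 0.150). Deviations of same-numbered libraries correlated at 0.22, -0.075 and 0.301, so the numbers were not taken to pair the mice.

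With 3 libraries a group, effects of the size seen in most of these genes are within the spread of the controls. The values of Derl3 under 1 FPKM rest on few fragments.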
